A study of Mus musculus with 10 samples.

Results

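Cholesterol and fatty acid synthesis genes were followed in 10 mouse fetal livers taken at embryonic day 14.5, 5 Zfp36l2 knockout and 5 wild type. The livers were individual ones of a mixed b6 and 129 background, and each was measured on its own Affymetrix array. The Zfp36l2 protein, a relative of tristetraprolin, attaches to AU-rich stretches of transcripts and hastens their breakdown. The labels do not say which part of the gene was removed, whether it was removed in particular cells, or which fetuses were littermates. The members were chosen by name: 32 genes of the mevalonate, sterol and fatty acid routes and their regulators, each taken through probe sets annotated with that single symbol. For 31 of the 32 such a probe set was found, 71 probe sets in all out of 45037 on the array, and Acat2 had none. The filter on dim signals, a mean of at least 32 intensity units over the 10 livers, left 57 of these probe sets and at least 1 for each of the 31 genes. The 31 genes comprised 17 cholesterol enzymes, 7 genes of sterol sensing and sterol transfer, and 7 fatty acid enzymes.

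Cells build cholesterol from acetyl-CoA through mevalonate, isoprenoid pyrophosphates, squalene and lanosterol, and build fatty acids from the same acetyl-CoA through malonyl-CoA. Transcription factors of the SREBP family, encoded by Srebf1 and Srebf2, drive genes of both routes. The sterol-sensing escort protein SCAP carries them to the Golgi for cleavage when membranes are poor in sterol, and the INSIG proteins hold SCAP back when sterol is plentiful. At this age the fetal liver is both a hepatoblast tissue and the main site of blood formation, and dividing cells of either kind make membrane lipid.

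SREBPs act on promoters together with NF-Y, which binds CCAAT boxes, and Sp1, which binds GC boxes. RefSeq promoter windows (build GRCm38.p6, 250 bases before to 50 after a gene start) were at hand for 26 of the 32 members, in 34 windows, because some genes have several starts. None was at hand for Sqle, Fdps, Fdft1, Stard4, Scd1 and Scd2. Of these, Sqle, Scd1 and Scd2 had the lowest unadjusted limma p-values of all members in their brightest probe sets. Acat2, which had no probe set, is counted here among the cholesterol enzymes. The letters CCAAT, searched on both strands, occurred in 14 of 15 cholesterol enzyme genes and in 77.8% of their 18 windows, against 37.4% of all 32851 windows. In the sterol sensing and transfer genes it occurred in 6 of 11 windows (54.5%), and in the fatty acid enzymes in 3 of 5. GGGCGG, a GC box, occurred in 83.3% of the cholesterol enzyme windows, in 9 of 11 sensing and transfer windows (81.8%) and in 2 of 5 fatty acid enzyme windows (40%), against 35.7% of all windows. CACNCCAC, the core of the sterol regulatory element, was found in 3 of the 34 member windows (8.82%), those of Acat2, Hmgcs1 and Insig1, and in 6.24% of all windows. These are letter matches only and were not tested. Shown here are 5 promoters with different motif matches, written in the direction of transcription. CACNCCAC and CCAAT matches of either strand are in capitals. Hmgcs1 and Insig1 hold both motifs, Lss and Tmem97 hold CCAAT alone, and Mvk holds the most CCAAT boxes of any member window. How motif counts relate to the knockout differences was not tested.
Hmgcs1 (chr13:119690101-119690400, + strand): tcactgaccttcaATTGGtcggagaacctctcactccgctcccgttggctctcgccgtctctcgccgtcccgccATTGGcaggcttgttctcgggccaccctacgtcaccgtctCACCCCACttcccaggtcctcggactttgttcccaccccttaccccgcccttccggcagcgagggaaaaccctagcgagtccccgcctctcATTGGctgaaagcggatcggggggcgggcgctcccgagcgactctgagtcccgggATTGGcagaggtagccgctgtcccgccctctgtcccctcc
Insig1 (chr5:28071162-28071461, + strand): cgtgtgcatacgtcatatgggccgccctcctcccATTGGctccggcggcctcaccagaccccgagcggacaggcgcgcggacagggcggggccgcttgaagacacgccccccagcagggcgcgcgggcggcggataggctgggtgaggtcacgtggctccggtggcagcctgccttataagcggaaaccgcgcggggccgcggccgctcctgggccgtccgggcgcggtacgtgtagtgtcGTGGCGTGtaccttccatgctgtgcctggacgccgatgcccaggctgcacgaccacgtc
Lss (chr10:76531355-76531654, + strand): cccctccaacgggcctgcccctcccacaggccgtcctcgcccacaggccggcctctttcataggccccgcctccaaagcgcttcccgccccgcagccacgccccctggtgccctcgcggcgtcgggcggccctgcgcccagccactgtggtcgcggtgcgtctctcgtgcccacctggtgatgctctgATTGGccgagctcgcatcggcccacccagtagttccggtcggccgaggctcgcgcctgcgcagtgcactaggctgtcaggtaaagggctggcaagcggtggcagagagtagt
Tmem97 (chr11:78550686-78550985, - strand): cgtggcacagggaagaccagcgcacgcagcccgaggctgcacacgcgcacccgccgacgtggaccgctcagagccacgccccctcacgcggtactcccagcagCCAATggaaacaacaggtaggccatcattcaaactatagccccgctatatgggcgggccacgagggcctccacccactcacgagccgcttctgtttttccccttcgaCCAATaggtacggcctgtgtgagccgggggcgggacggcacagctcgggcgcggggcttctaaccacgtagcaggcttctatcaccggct
Mvk (chr5:114444019-114444318, + strand): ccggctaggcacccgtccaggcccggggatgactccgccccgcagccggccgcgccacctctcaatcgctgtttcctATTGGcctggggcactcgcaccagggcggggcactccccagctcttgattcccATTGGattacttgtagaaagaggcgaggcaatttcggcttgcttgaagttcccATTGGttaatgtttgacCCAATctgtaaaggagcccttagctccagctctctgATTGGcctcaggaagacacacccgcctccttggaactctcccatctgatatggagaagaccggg
In the Hmgcs1 window the sterol element core lies 136 bases before the gene start, with CCAAT matches 237, 176 and 45 bases before the start and another just after it.

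The labels were checked first on Zfp36l2 itself. Its signal was 108, 82.3, 109, 103 and 108 intensity units in the knockout livers, against 396, 397, 596, 391 and 389 in the wild type livers. No liver overlapped between genotypes, and limma called the fall (log2 difference -2.08 ± 0.13, SE; adjusted p = 8.20e-06). All 10 hepatocyte markers listed and 8 of the 10 erythroid markers listed had a probe set that passed the filter. These markers are described with the other cell types. Array medians before normalization ran from 19.5 to 24.2 in knockout and from 22.0 to 25.0 in wild type livers. A gene is called here where its limma p, adjusted by the Benjamini-Hochberg method over all 18799 probe sets tested, is under 0.05. Gene counts use the brightest probe set of each gene, 9906 genes in all, of which 0.162% were called higher and 0.172% called lower in knockout livers.

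Most lipid synthesis genes averaged slightly higher in the knockout livers, and none was called. Of the 31 genes 28 had a log2 difference (knockout minus wild type) above 0, against 50% of all genes tested, and their median was 0.21, against 0.00 over all genes. Limma called 0 of the 31, and 14 had an unadjusted p under 0.05, all of them higher. Over all genes 6.77% were higher and 6.39% lower at that unadjusted level, 13.2% in all. The knockout and wild type livers of every member overlapped in its brightest probe set, where 1.61% of all genes had every knockout liver above every wild type liver and 1.77% had every one below, 3.37% in all. Over the 57 tested probe sets of the members 52 were above 0, and 22 were higher and 0 lower at an unadjusted p under 0.05, against 5.96% and 5.88% of all probe sets. Because whole livers were measured, more cells of a type that makes these transcripts and more transcript per cell cannot be told apart.

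**Figure D1:**
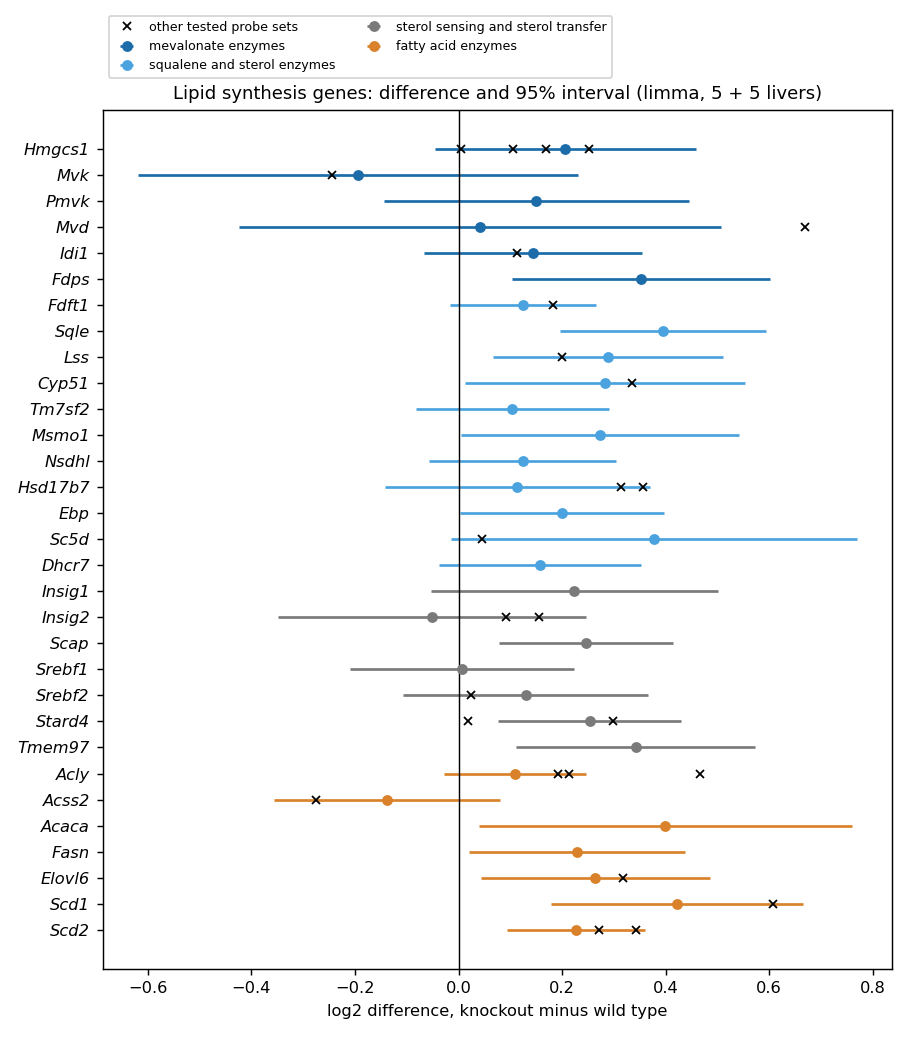
Log2 difference, knockout minus wild type, of the brightest probe set of each of the 31 genes (dots) with its 95% interval from limma, and of the other tested probe sets (crosses). Of the dots 28 lie right of 0, and the widest intervals belong to dim genes such as Mvk and Mvd.

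Among the cholesterol enzymes 16 of 17 had a difference above 0, with a median of 0.16 on the log2 scale. That median was 0.24 where the arrays were scaled by their medians instead, which moved the median of all probe sets to 0.06. The mevalonate steps come first. Hmgcs1, the cytosolic HMG-CoA synthase, gave 3891, 3585, 3702, 3244 and 2641 units in knockout livers 1 to 5, against 3368, 2915, 3555, 2510.2 and 2474 in wild type livers 1 to 5. Knockout livers 1 to 3 lay above every wild type liver, while knockout livers 4 and 5 lay inside the wild type range. The log2 difference was 0.21 ± 0.12 (SE; limma adjusted p = 0.532), and the other 4 tested Hmgcs1 probe sets gave 0.25, 0.17, 0.11 and 0.01, the last from a dim probe set near 34 units.

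Mvk and Pmvk phosphorylate mevalonate in succession, Mvd decarboxylates the product to isopentenyl pyrophosphate, and Idi1 isomerizes it. Mvk was the single cholesterol enzyme with a difference below 0: it ran from 75.6 to 125 units in knockout and from 86.3 to 166 in wild type livers (log2 -0.19 ± 0.20, limma adjusted p = 0.768). Pmvk averaged 259.7 ± 39.5 and 235 ± 41.8 units in knockout and wild type livers (SD, n = 5 each). For Mvd the probe sets did not tell the same story. Its brighter one averaged 126 units in both genotypes (log2 0.04), and a second of nearly the same brightness averaged 139 ± 28.6 in knockout and 89.6 ± 30.8 in wild type livers (log2 0.67, limma adjusted p = 0.259). Idi1 averaged 1233 ± 137 and 1119 ± 152 units, a log2 difference of 0.14 ± 0.10.

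Fdps, which condenses the isoprene units to farnesyl pyrophosphate, had the largest difference of the mevalonate group. Its knockout livers gave 2259.7, 2354, 2207, 1826 and 1830.5 units and its wild type livers 2002, 1668, 1716, 1665 and 1213. Every knockout liver lay above 4 of the 5 wild type livers, and the overlap came from wild type liver 1. The log2 difference of 0.35 ± 0.12, a 1.28-fold ratio, had an unadjusted limma p of 0.00894 and an adjusted p of 0.229.

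The squalene and sterol enzymes followed, all 11 with a difference above 0 (0.10 to 0.39 on the log2 scale, median 0.20). Fdft1 joins 2 farnesyl groups into squalene, and its brightest probe set averaged 935 ± 59.0 in knockout and 858 ± 56.7 in wild type livers (log2 0.12 ± 0.07). Sqle, the squalene epoxidase and a rate-limiting step of the sterol branch, came nearest to a call of all members. It gave 886, 972, 1127, 1158 and 1081 units in knockout livers 1 to 5, against 740.5, 949, 822, 754 and 710.5 in wild type livers 1 to 5. All knockout livers except liver 1 were above every wild type liver, and knockout liver 1 was below wild type liver 2 alone. The ratio was 1.31-fold (log2 0.39 ± 0.09, 95% interval 0.20 to 0.59; limma adjusted p = 0.0931), with an exact two-sided permutation p of 0.0159 over the 252 splits of the livers, unadjusted. The exact permutation p was 0.0317 for Fdps, 0.0635 for Lss, 0.103 for Cyp51, 0.111 for Msmo1 and 0.0714 for Ebp. It was 0.0873 for Acaca, 0.0794 for Fasn, and 0.0159 to 0.0317 for Scap, Stard4, Tmem97, Elovl6, Scd1 and Scd2. Not every gene with an unadjusted limma p under 0.05 was thus under that level in the exact test.

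Lss, which cyclizes oxidosqualene to lanosterol, had 745, 851, 793, 595 and 656 units in knockout livers and 645, 529, 658, 523 and 614 in wild type livers. Knockout livers 1 to 3 stood above all wild type livers and the other two within their range (log2 0.29 ± 0.10, limma adjusted p = 0.274). Cyp51, the lanosterol demethylase, had 504, 564, 499, 391 and 409 units in knockout livers, against 483, 344, 434, 354 and 333 in wild type livers. Here too 3 knockout livers exceeded the wild type range, at a log2 difference of 0.28 ± 0.13 (limma adjusted p = 0.397), and a second Cyp51 probe set gave 0.33. Msmo1, the sterol C4-methyl oxidase, had 951, 1189, 1038, 831 and 798 units in knockout livers and 938, 727, 887, 807 and 617 in wild type livers. Its highest wild type liver, liver 1, lay above knockout livers 4 and 5, and the log2 difference was 0.27 ± 0.12 (limma adjusted p = 0.415). Ebp, the sterol isomerase, had 802, 628, 752, 658 and 729.8 units in knockout livers and 728, 654, 615, 584 and 533 in wild type livers. Knockout livers 1, 3 and 5 lay above every wild type liver (log2 0.20 ± 0.09, limma adjusted p = 0.419).

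The remaining sterol enzymes gave smaller or noisier differences. Sc5d, the lathosterol desaturase, had one of the largest estimates and the widest interval of the sterol branch (log2 0.38, 95% interval -0.01 to 0.77), with wild type liver 4 at 363 units below all the others, and its second probe set gave 0.05. Dhcr7, which makes cholesterol from 7-dehydrocholesterol, averaged 645 ± 68.3 and 579 ± 63.5 units in knockout and wild type livers (log2 0.16). Tm7sf2, Nsdhl and Hsd17b7, which act on the sterol after its demethylation at C14, gave log2 differences of 0.10, 0.12 and 0.11, with limma adjusted p-values of 0.705, 0.612 and 0.775. All 3 tested Hsd17b7 probe sets had differences above 0.

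**Figure D2:**
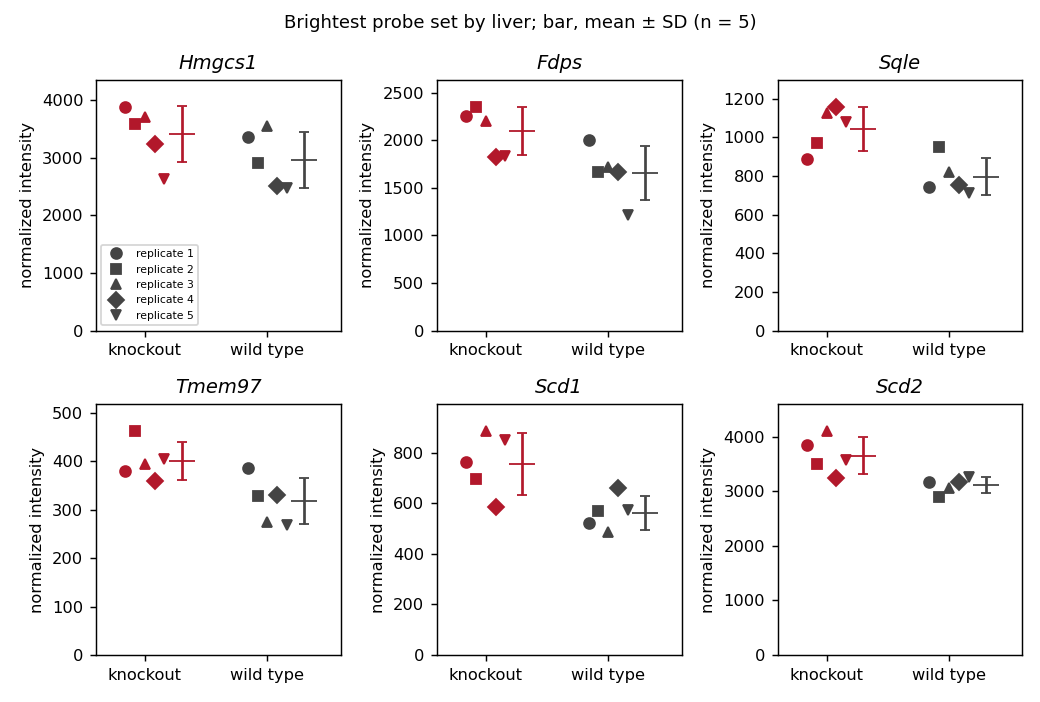
Normalized intensity of 6 members in every liver (knockout in red, wild type in grey; marker shape gives the replicate number; bar, mean ± SD, n = 5). Sqle, Scd1 and Scd2 each have 4 knockout livers above the wild type range, and Hmgcs1 has 3.

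Among the genes that sense or move sterol, the escort Scap, the carrier Stard4 and the sterol-binding membrane protein Tmem97 averaged higher in knockout livers. The estimates for the SREBP genes themselves were smaller. None of these genes passed the test. Scap had 410.0, 393, 380.3, 352 and 399 units in knockout livers and 356, 301, 323, 304 and 348 in wild type livers. All knockout livers except liver 4 exceeded the wild type range, with a log2 difference of 0.25 ± 0.08 (limma adjusted p = 0.212). Srebf1 averaged 550.1 ± 49.6 in knockout and 550.4 ± 79.0 in wild type livers (log2 0.01, 95% interval -0.21 to 0.22). Srebf2 averaged 180.2 ± 17.5 and 165 ± 18.6 units in the same order of genotypes, a log2 difference of 0.13 (95% interval -0.11 to 0.37). These intervals leave room for modest differences in either direction for both genes.

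Insig1, itself a target of SREBP, averaged 315 ± 40.5 in knockout and 271 ± 46.4 units in wild type livers (log2 0.22 ± 0.13, limma adjusted p = 0.538). Insig2 averaged 146 ± 28.2 and 149 ± 6.63 units, and its 3 probe sets gave log2 differences of -0.05, 0.09 and 0.16. Stard4, a cytosolic sterol carrier, had 986, 1079.7, 904, 794 and 910.0 units in knockout livers, against 749.8, 787, 708, 815 and 850.2 in wild type livers. Knockout liver 4 was the one inside the wild type range (log2 0.25 ± 0.08, limma adjusted p = 0.220), and the other 2 Stard4 probe sets gave 0.30 and 0.02. Tmem97, a membrane protein that binds sterols and the lysosomal exporter NPC1, had 381, 463, 395, 359 and 404 units in knockout livers, against 385, 329, 275, 329.8 and 268 in wild type livers. All knockout livers lay above 4 wild type livers, and wild type liver 1 lay among them (log2 0.34 ± 0.11, limma adjusted p = 0.204).

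Over these 7 genes the median log2 difference was 0.22, with 6 of 7 above 0 and 3 at an unadjusted p under 0.05. The median was 0.14 without wild type liver 2.

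The fatty acid enzymes held the 3 member probe sets whose livers did not overlap between genotypes, for the desaturase Scd2 and the elongase Elovl6. None of the 7 genes passed the test. Of 7 genes 6 had a difference above 0, with a median log2 difference of 0.23, and 5 had an unadjusted limma p under 0.05. Scd2, the stearoyl-CoA desaturase typical of embryonic tissue, gave 3846, 3507, 4109, 3239 and 3585 units in knockout livers, against 3177, 2899, 3059.6, 3173 and 3270.4 in wild type livers. Only wild type liver 5 reached into the knockout range, just above knockout liver 4, and the log2 difference was 0.23 ± 0.06 (limma adjusted p = 0.145). The other 2 Scd2 probe sets had no overlap between genotypes. The first of them ran from 969 to 1139 units in knockout and from 805 to 922 in wild type livers (log2 0.27 ± 0.06, limma adjusted p = 0.0946), and the next from 277 to 345 and from 231 to 269 units (log2 0.34 ± 0.09, adjusted p = 0.147). Of all probe sets tested, 1.4% had every knockout liver above every wild type liver and 1.57% had every one below, 2.97% in all.

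Scd1, the desaturase that dominates in adult liver, gave 762, 697, 886, 583 and 850.2 units in knockout livers and 519.9, 568, 485, 659 and 573 in wild type livers. The groups overlapped through a single pair, wild type liver 4 above knockout liver 4. The 1.34-fold ratio (log2 0.42 ± 0.11) was the largest among the brightest probe sets of the members, with a limma adjusted p of 0.142. The dimmer Scd1 probe set gave 0.61, with wild type liver 4 again high, at 111 units, where no other wild type liver passed 59.5.

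Elovl6 lengthens palmitate to stearate and so supplies the desaturases. Its brightest probe set had 297, 358, 315, 278 and 306 units in knockout livers, against 301, 239, 218, 275 and 265 in wild type livers. Wild type liver 1 was the single liver to overlap the knockout range (log2 0.26 ± 0.10, limma adjusted p = 0.324). In its second probe set, with 169 to 205 units in knockout and 135 to 167 in wild type livers, no liver overlapped (log2 0.32, limma adjusted p = 0.220).

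Fasn, the fatty acid synthase, had 526, 600.2, 541, 517 and 429 units in knockout livers, against 478, 412, 464, 488 and 384 in wild type livers. Its knockout liver 5 fell within the wild type range and the other 4 lay above it (log2 0.23 ± 0.10, limma adjusted p = 0.373). Acaca, which makes malonyl-CoA, varied more between livers of the same genotype: 298, 189, 260.5, 169.9 and 283 units in knockout livers and 203, 201, 195, 159 and 140.2 in wild type livers. Knockout livers 2 and 4 lay among the wild type livers, and the log2 difference of 0.40 ± 0.17 had a limma adjusted p of 0.367. Acly, which cuts citrate to cytosolic acetyl-CoA, had a difference of 0.11 ± 0.06 in its brightest probe set, at 1177 ± 61.7 and 1092 ± 82.3 units in knockout and wild type livers. Its 3 other tested probe sets gave 0.19, 0.47 and 0.21 (lowest limma adjusted p = 0.165). Acss2, which makes acetyl-CoA from acetate, was below 0 in both tested probe sets, with log2 differences of -0.14 (226 ± 15.6 in knockout and 250.1 ± 33.6 units in wild type livers) and -0.27. Neither passed the test (limma adjusted p = 0.652 and 0.572).

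Within each genotype, the same livers tended to be the highest or the lowest for the cholesterol enzymes. Among knockout livers, liver 2 was the highest for 9 of the 17 cholesterol enzymes, while liver 5 was the lowest for 8 and liver 4 for 6. Among wild type livers, liver 1 was the highest for 11 of the 17 and liver 5 the lowest for 12. Liver 5 was thus the lowest most often in both genotypes. Liver 3 was among the highest 2 of its genotype for 11 enzymes in each genotype, and liver 4 for 3 in each. Liver 2 differed, at 12 in knockout and 4 in wild type livers. The labels do not say whether livers of the same number belong together. For the 7 fatty acid enzymes, knockout liver 3 was the highest for 4 and knockout liver 4 the lowest for 4. Sqle departed from the order of its pathway, with knockout liver 4 the highest and knockout liver 1 the lowest. It was not alone: knockout liver 4 was also the highest for Nsdhl, and knockout liver 1 also the lowest for Hsd17b7. The median over the 17 enzymes, taken as each liver's log2 value minus the gene's mean, was 0.17, 0.21, 0.23, -0.06 and -0.06 in knockout livers 1 to 5 and 0.12, -0.14, 0.02, -0.19 and -0.32 in wild type livers 1 to 5. Wild type livers 1 and 3 thus stood above knockout livers 4 and 5. Over the fatty acid enzymes the same measure ran from -0.03 to 0.17 in knockout and from -0.19 to -0.01 in wild type livers, and over the sterol sensing and transfer genes from -0.01 to 0.21 and from -0.18 to 0.00. Taking each gene's brightest probe set, the cholesterol enzymes summed to 13064 to 16221 units in knockout and 11029 to 14438 in wild type livers. The fatty acid enzymes summed to 6163 to 7634 and 5631 to 6087 units. Single bright genes make up much of these sums. Scd2 alone averaged 3657 units in knockout and 3116 in wild type livers, and Hmgcs1 alone averaged 3413 and 2964.

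**Figure D3:**
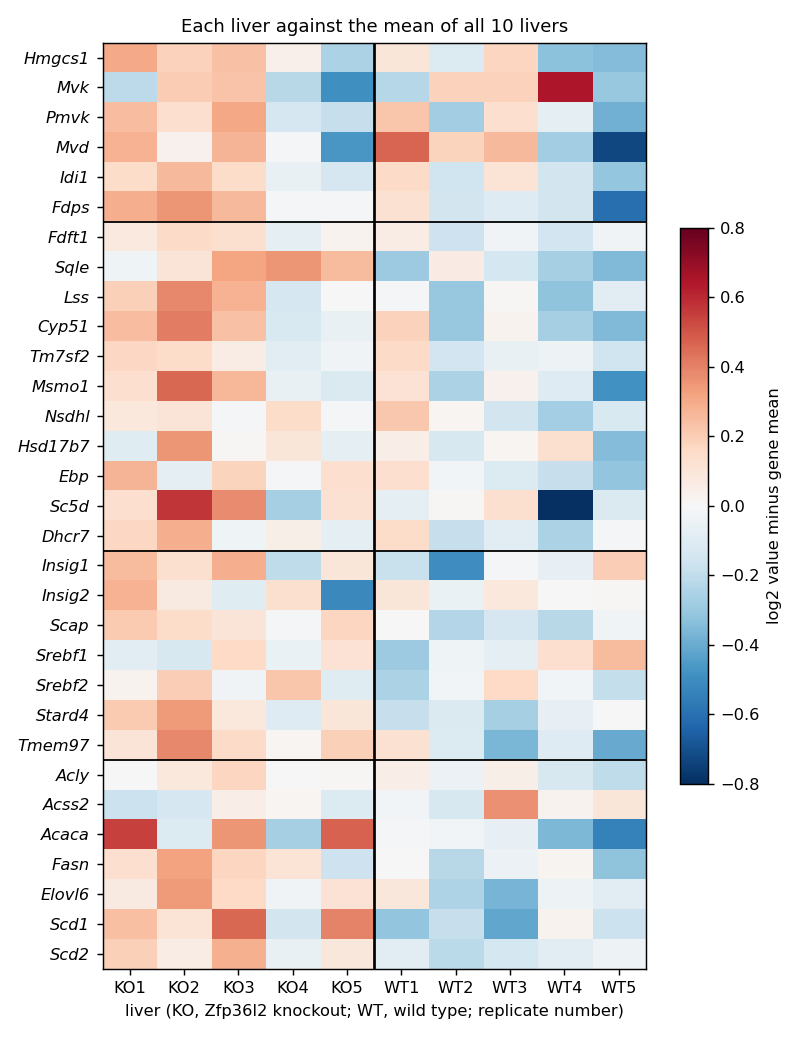
Log2 value of each liver minus the mean of all 10 livers for the 31 genes, knockout livers left and wild type livers right of the line. Columns KO1 to KO3 are mostly above the mean for the cholesterol enzymes and WT4 and WT5 mostly below, while some rows, such as Sqle and Nsdhl, follow another order.

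Counts at the unadjusted level depended on single livers. For the cholesterol enzymes 6 genes were higher at p under 0.05 with all livers, and 3 without knockout liver 1 or 3 or wild type liver 4 or 5. For the fatty acid enzymes 5 were higher with all livers, and 3 without knockout liver 1, 2 or 3 or wild type liver 2 or 5.

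Neighbouring lipid routes were described from lists written for comparison. Genes of fatty acid elongation, desaturation and triglyceride synthesis had 12 of 15 tested members above 0, with a median log2 difference of 0.18 and 0 called by limma, 3 being higher and 1 lower at an unadjusted p under 0.05. The brightest of them, the acyl-CoA synthetase Acsl5, averaged 1252 ± 157 and 1495 ± 109 units in knockout and wild type livers (log2 -0.26 ± 0.08, limma adjusted p = 0.200), with knockout liver 5 apart at 1526 units. In fatty acid oxidation 7 of 12 were above 0, with a median of 0.04, and limma called Crot alone, a peroxisomal carnitine acyltransferase. Crot ran from 733 to 818 units in knockout and from 520.1 to 628 in wild type livers without overlap (log2 0.45 ± 0.07, limma adjusted p = 0.0242). The isoprenoid branch had 3 of 7 above 0 with a median of -0.10, and its brightest gene Fnta, a subunit of farnesyltransferase, averaged 806 ± 49.5 and 869.96 ± 33.0 units. Genes that cleave or turn over SREBP and its partners had 4 of 5 above 0 with a median of 0.12, and the brightest, the ubiquitin ligase Rnf139, had a log2 difference of -0.19 ± 0.08 (limma adjusted p = 0.390). Cholesterol efflux, storage and conversion had 6 of 9 above 0 with a median of 0.07, and the exporter Abca1 averaged 1545 ± 81.8 and 1325 ± 126 units in knockout and wild type livers (log2 0.22 ± 0.07, limma adjusted p = 0.188). In these last 3 lists limma called 0 genes, with 0, 0 and 3 higher and 0, 1 and 0 lower at an unadjusted p under 0.05.

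Markers of the cell types in the fetal liver were summed in the same livers, and limma called members of the megakaryocyte list alone. Of 10 hepatocyte markers 7 were above 0, with a median log2 difference of 0.12, and their summed signal ran from 61508 to 77664 units in knockout and from 59264 to 69375 in wild type livers. Much of that sum is Afp and Alb, at 16287 and 15063 units in knockout and 16358 and 15407 in wild type livers. Afp took the top value of the normalized scale in several livers of both genotypes, where quantile normalization gives those livers the same value and no order. Fgb, Fgg and Hnf4a, named after their values were seen, were the hepatocyte markers higher at an unadjusted p under 0.05, with log2 differences of 0.51, 0.44 and 0.26 (limma adjusted p = 0.191, 0.184 and 0.392). The markers below 0 were Cps1, Alb and Afp, with log2 differences of -0.46, -0.03 and -0.01 (limma adjusted p = 0.873, 0.824 and 0.964). Knockout liver 2 was far below the other livers for Cps1, at 32.4 units. All 9 tested macrophage markers were above 0, with a median of 0.40, and the brightest, Cd5l, averaged 1156 and 876 units in knockout and wild type livers. Their sum ran from 4902 to 5728 in knockout and from 3097 to 5078 units in wild type livers. Neutrophil lineage markers were above 0 in 8 of 10, with a median of 1.05, S100a9 the brightest at 6876 and 4234 units, and summed to 13991 to 26325 and 6232 to 27667 units. Erythroid markers were above 0 in 1 of 8, Slc4a1, with a median of -0.21 and sums of 21359 to 24748 and 21921 to 28169.8 units. Cell cycle genes were above 0 in 1 of 9, with a median of -0.14, Mki67 the brightest at 4920 and 5762 units, and sums of 14587 to 16547 and 16607 to 18542 units. Megakaryocyte markers were below 0 in 9 of 9, with a median of -1.11 and sums of 1698 to 2744 and 3989 to 5783 units. Limma called 6 of these 9, Pf4, Ppbp, Plek, Itga2b, Itgb3 and Gp5, all lower. In the other 5 marker lists limma called 0, and at an unadjusted p under 0.05 there were 3 hepatocyte, 4 macrophage and 6 neutrophil lineage markers higher and 6 erythroid and 3 cell cycle ones lower. Every tested marker had a mean of at least 32 units, because the filter required it. The part of these cell types in the differences of the lipid genes was not tested.

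**Figure D4:**
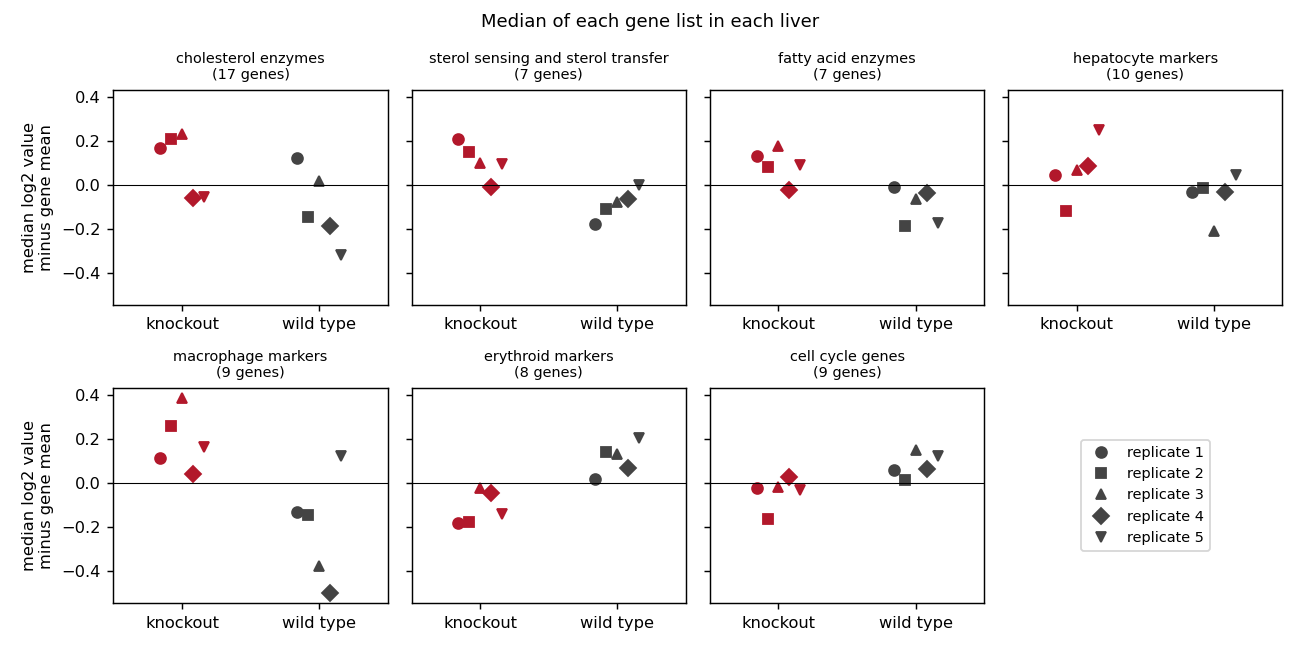
Median over each gene list of the log2 value minus the gene's mean, for each liver (knockout in red, left; wild type in grey, right; marker shape gives the replicate number). Cholesterol enzymes run from -0.06 to 0.23 in knockout and from -0.32 to 0.12 in wild type livers and overlap, and the erythroid list runs from -0.18 to -0.02 and from 0.02 to 0.20.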

How the data were processed

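Total RNA of 10 individual fetal livers, 1 µg each, was made into biotin-labelled cRNA for Affymetrix mouse arrays, per the labels' protocols. The authors deposited linear intensities, some below 0. How the authors computed and scaled these intensities is not given in the sources used here. Probe sets were named by the platform annotation: 34945 carried 1 symbol, 932 several and 9160 none. Genotype and replicate number came from the titles, and litters were not used.

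Values were quantile-normalized on the linear scale, values under 16 were set to 16, and log2 was taken. Probe sets with a mean of at least 32 were tested two-sided by limma 3.58.1 under R 4.3.3, with genotype alone in the linear model and a mean-dependent prior variance. Floor and filter differ from an earlier analysis, whose floor near 0 is kept as an alternative. A gene is represented by its brightest probe set. SDs are over 5 livers on the normalized scale, intervals are limma's, and the number of arrays limits the precision. Exact permutation tests used all 252 splits of the livers, where the smallest p is 0.00794. Genes with an unadjusted p under 0.05 and the largest difference in each list are given by liver, and the brightest or called members stand for the other lists. Among the members, Hmgcs1 meets neither condition and is given by liver in addition. The members, lists and settings were chosen with earlier results of these data known, so no list was tested. The fit was tested on simulated data whose nonzero changes were larger than the differences of the members. That test does not show whether differences as small as theirs would be called. Alternatives covered scaling, floor, offset, filter, variance model, array weights, probe set choice, replicate block and leaving out each liver. Figures used matplotlib 3.10.9 in Python 3.11.15. Promoter sequences are RefSeq's.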

Additional observations from a re-analysis of the deposited data

Results flagged for a closer look

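Dixon's ratio was computed for the 5 livers of each genotype in 96 groups, where chance gives about 1 in 20, or 4.8, and 5 values stood apart. None belonged to a lipid synthesis gene described as a member. Zfp36l2 was low in knockout liver 2 (82.3 units, nearest 103) and high in wild type liver 3 (596 units, nearest 397). Fnta was high in knockout liver 1 (891 units, nearest 805) and Acsl5 in knockout liver 5 (1526 units, nearest 1207). Abca1 was high in wild type liver 5 (1549 units, nearest 1285).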

How the results depend on the processing

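No member gene was called in any of the 22 alternatives, in which the lowest adjusted p of limma was 0.0590 (Scd2, mean of all its tested probe sets). In that alternative p was adjusted over genes instead of over probe sets. The count of genes above 0 stayed within 1.5 times in each group. All probe sets called, 44 in the setting reported (20 higher, 24 lower), were 81 with median scaling (59 higher, 22 lower), 25 with the floor at the lowest positive value, 4 without a filter, 6 without trend, 128 with array weights, and 9 to 148 with a liver left out. With the replicate block they were 119. Livers with the same number correlated at 0.05 to 0.19 in their deviations from the genotype means. Of the 5 knockout livers 4 correlated best with their own number, and knockout liver 2 with wild type liver 1 (0.11). The labels do not say what livers of the same number share, and a common litter or batch was not tested. The fit reported leaves the numbers out, and the block is given as an alternative. Cholesterol enzymes higher at an unadjusted p under 0.05 (6) were 11 with median scaling, 3 without scaling, 3 without a filter, 3 without trend, and 3 to 9 with a liver left out; fatty acid enzymes (5) were 3 without trend and 3 to 5 with a liver left out. With median scaling, which moved the median of all probe sets to 0.06, the median of the cholesterol enzymes (0.16) was 0.24, that of the sterol sensing and transfer genes (0.22) was 0.30 and that of the fatty acid enzymes (0.23) was 0.31, and the sterol sensing and transfer median ran from 0.14 to 0.28 with a liver left out. The genes near 0 changed sign: Insig2 was 0.024 with median scaling, 0.065 with its probe sets averaged and -0.13 to 0.070 with a liver left out; Srebf1 was -0.0020 without scaling and -0.066 to 0.071 with a liver left out; Mvd was -0.0066 with array weights and -0.14 to 0.16 with a liver left out. The cause of these shifts was not tested.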
